A study of Mus musculus with 4 samples.

Results

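The genes described are splicing factors and small nuclear ribonucleoprotein (snRNP) proteins, taken from the expression table as every gene whose symbol begins with Srsf, Hnrnp, Snrp or Sf3, or with Gemin and a digit, without pseudogene names. The rule gave 58 of the 15586 genes in the table, in 5 families: 12 Snrp, 9 Sf3, 6 Gemin, 11 Srsf and 20 Hnrnp genes. RNA was profiled from microglia, the resident macrophages of the retina, which were sorted on EYFP from 2-month-old mice at 200 cells per library. Mice of both groups had 1 Cx3cr1 allele that drives the inducible recombinase CreER in microglia and other myeloid cells (Cx3cr1CreER/+), with floxed alleles of the kinase gene Tak1 (Tak1fl/fl, written Tak3fl/fl in the genotype label of the knockouts). The 2 TAK1 knockout libraries came from mice injected with tamoxifen at 75 mg/kg on 5 days, and the 2 control libraries from mice injected with corn oil on 5 days. Because tamoxifen went to the knockouts alone, an effect of the drug cannot be told apart from an effect of the deletion. The labels do not say whether the libraries came from separate animals, so a p-value measures the spread between these libraries, which may be technical.

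Introns are removed from precursor mRNA by the spliceosome, which is built from U snRNPs. Each spliceosomal U snRNP of the major kind other than U6 carries a ring of Sm proteins, encoded by Snrp genes, that the SMN complex with its Gemin subunits loads onto the small nuclear RNA. The SF3A and SF3B complexes, encoded by Sf3 genes, belong to the U2 snRNP and help it bind the branch site. SR proteins (Srsf genes) and heterogeneous nuclear ribonucleoproteins (Hnrnp genes) bind the transcript and steer which exons are kept, and a drop or rise of either can shift splicing of many genes. The table gives the summed level of each gene, not its isoforms, so splicing itself was not measured.

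The values are FPKM, fragments scaled to transcript length and library size, so levels may be compared between genes. They summed to 823229 and 812009 in TAK1 knockout 1 and 2, and to 969700 and 863652 in control 1 and 2, and the read depth is unknown. Map3k7, the gene for TAK1, was listed at 0.02 and 0.08 FPKM in the knockouts and 0.03 and 0 FPKM in the controls, too low in both groups to check the deletion. All 10 microglial markers examined were in the table and 9 of them read above 1 FPKM in every library; Sall1, a transcription factor of microglia, read 0.07 FPKM in control 1. The summed level of the 10 was 23910 and 17660 FPKM in the knockouts against 9170 and 11750 FPKM in the controls. Rod photoreceptor markers were also present: they summed to 6172 and 9121 FPKM in the knockouts against 2215 and 3226 FPKM in the controls, and 8 of 10 lay above both controls in both knockouts. Of the 5 monocyte markers tested, 1 lay below both controls and 0 above, with sums over the 5 of 52.1 and 120.3 FPKM in the knockouts against 404.9 and 442.2 FPKM in the controls. Cone markers lay above in 2 of 4 tested and Müller glia markers in 1 of 6, with none below, and no endothelial marker reached the filter. In bulk RNA, fewer cells of a type and less RNA per cell cannot be told apart, and the part these cells had in the values below was not tested.

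The comparison of knockout with control asked how transcripts of microglia differ after loss of TAK1. Of the 58 members, 52 had a mean of at least 1 FPKM and were tested; Gemin4, Gemin5, Gemin8, Hnrnpul2, Sf3a2 and Srsf12 were below it. No member passed limma's moderated test on log2(FPKM + 1) at a Benjamini-Hochberg adjusted p under 0.05, and 0% of all 7823 tested genes were called in either direction (smallest adjusted p = 0.547). At an unadjusted p under 0.05 there were 5 higher members and 1 lower, against 6.07% and 1.62% of all tested genes. Both knockouts lay above both controls in 14 of the 52 members (26.9%) and below both in 6 (11.5%). The same shares over all tested genes were 27.8% and 11.4%, so the members' shares were near the background. The smallest two-sided p that exact permutation of 2 against 2 libraries allows is 0.33.

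The balance of directions depended on scaling. After median ratio scaling 10 members lay above and 15 below, against 20.6% and 20% of all tested genes. On the log2(FPKM + 1) scale the members' median difference (knockout minus control) was 0.18, where that of all tested genes was 0.94. The members stood -0.76 from all genes in the deposited FPKM, -0.82 after median ratio scaling and -0.09 after quantile normalization, but 0.10 above all genes when genes under a mean of 1 FPKM were kept. Where the mean reached 100 FPKM, 2 of 23 members lay above and 5 below, against 19% and 26.5% of 1177 genes, and the medians were -0.19 for the members and -0.11 for all. Leaving out 1 library in turn gave 17 to 23 members above and 12 to 20 below, but then a single library stands for its group, and 42.1% to 45.6% and 21.3% to 27.3% of all genes did the same. Calls in these fits are not read for single members, because the lone library is assumed to vary like the other group.

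**Figure D1:**
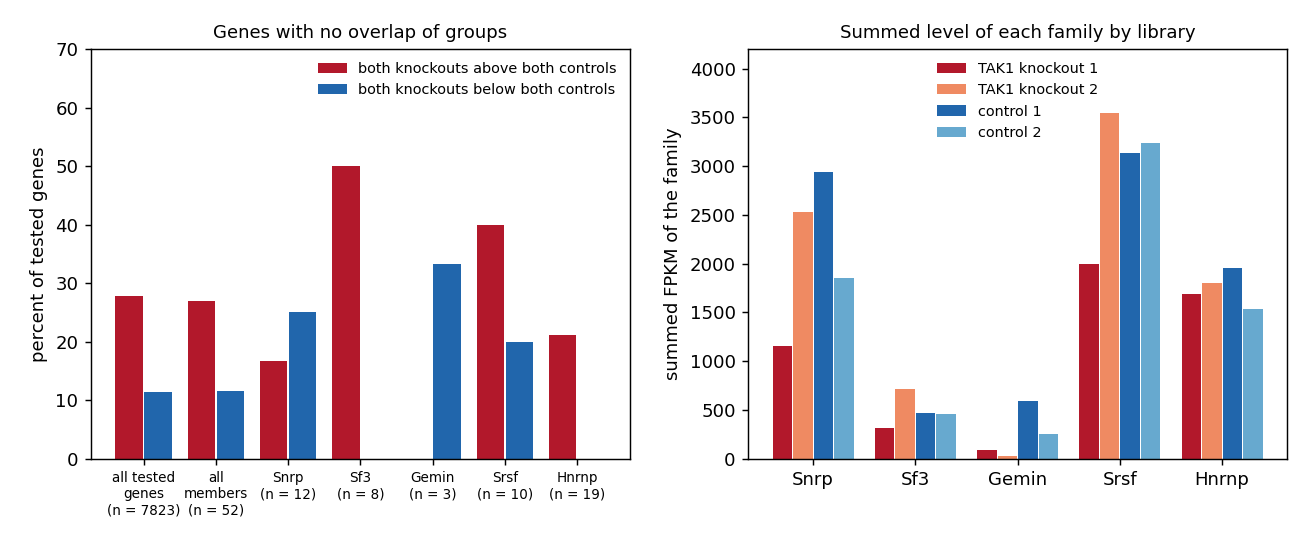
Left, percent of tested genes in which both TAK1 knockout libraries lay above (red) or below (blue) both control libraries, for all tested genes, all members and each family, with the number tested. Right, summed FPKM of each family in every library. The members' shares of 26.9% and 11.5% sit beside 27.8% and 11.4% for all genes, and knockout 1 has the lowest Snrp and Srsf sums of the 4 libraries. The Srsf sum rests largely on Srsf2, which gave 584 of 1997 FPKM in knockout 1 and 1905 of 3541 FPKM in knockout 2. In control 1 and 2 it gave 2079 of 3132 FPKM and 2083 of 3236 FPKM.

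Values near 0 in some libraries were less frequent among members than among all tested genes, without matching for level. Of the 52 tested members, 21 (40.4%) read under 1 FPKM in at least 1 library, against 73.6% of all tested genes. More than 90% of a gene's summed FPKM came from 1 library in 5 tested members (9.62%) and in 32.1% of all tested genes. Those 5 were Gemin2, Snrpa, Sf3b2, Srsf4 and Hnrnpll. Control 2 had the most members under 1 FPKM: 8 and 6 in the knockouts, against 7 and 16 in the controls. It also had the most over all tested genes, with 27.6% and 32.3% in the knockouts against 44.5% and 53.1% in the controls. Absence of the transcript cannot be read from such a value.

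Promoters of 4 members are shown, from 250 bases before to 50 after an annotated transcript start, because these members had no overlap of groups and differ in direction: Srsf5 and Sf3a3 stood higher in the knockouts, Srsf11 and Gemin6 lower. Sequences are from RefSeq (GRCm38.p6), of which 52 of the 58 members had an entry, and run 5′ to 3′ on the strand of the gene. That of Gemin6 is at a start inside the RefSeq gene span (chromosome 17, 80207504 to 80228497), not at its first base. Capitals mark any of 4 motifs searched on both strands. They were TATAAA, known as the TATA box, and CCAAT, known as the box bound by the factor NF-Y. The others were GGGCGG, the GC box bound by Sp family factors, and CCGGAAG, a motif of ETS family factors.
Srsf5 (chr12:80945249-80945548, plus strand): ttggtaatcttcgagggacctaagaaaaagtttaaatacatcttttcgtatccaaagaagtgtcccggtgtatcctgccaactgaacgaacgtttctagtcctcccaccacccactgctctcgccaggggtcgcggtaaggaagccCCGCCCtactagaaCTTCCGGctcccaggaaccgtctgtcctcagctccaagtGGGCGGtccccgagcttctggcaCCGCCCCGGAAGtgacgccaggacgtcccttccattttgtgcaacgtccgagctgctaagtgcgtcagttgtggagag
Sf3a3 (chr4:124714611-124714910, plus strand): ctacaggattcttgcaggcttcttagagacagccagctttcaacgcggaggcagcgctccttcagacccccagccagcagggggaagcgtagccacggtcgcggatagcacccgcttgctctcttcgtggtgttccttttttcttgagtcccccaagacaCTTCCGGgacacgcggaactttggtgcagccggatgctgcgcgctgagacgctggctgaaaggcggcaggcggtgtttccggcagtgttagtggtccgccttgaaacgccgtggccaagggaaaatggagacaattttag
Srsf11 (chr3:158036557-158036856, minus strand): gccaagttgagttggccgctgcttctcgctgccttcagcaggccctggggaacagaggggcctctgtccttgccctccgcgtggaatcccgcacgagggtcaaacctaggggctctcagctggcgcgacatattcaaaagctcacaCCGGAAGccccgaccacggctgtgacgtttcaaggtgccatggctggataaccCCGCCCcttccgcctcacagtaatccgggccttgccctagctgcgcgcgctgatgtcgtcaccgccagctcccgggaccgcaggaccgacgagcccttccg
Gemin6 (chr17:80224201-80224500, plus strand): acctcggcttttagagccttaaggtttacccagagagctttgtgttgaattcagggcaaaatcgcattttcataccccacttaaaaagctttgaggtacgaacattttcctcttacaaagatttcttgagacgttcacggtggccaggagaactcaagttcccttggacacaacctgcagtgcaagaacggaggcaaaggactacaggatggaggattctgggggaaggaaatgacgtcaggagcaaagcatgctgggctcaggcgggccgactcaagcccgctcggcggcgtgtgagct
The Srsf5 promoter held 3 GC boxes and 2 ETS-type motifs, of which a GC box and an ETS-type motif overlap; that of Sf3a3 held 1 ETS-type motif, that of Srsf11 held 1 GC box and 1 ETS-type motif, and that of Gemin6 held none of the 4. The ETS-type motif was in 17 of 52 member promoters (32.7%), 20.75% of the 6353 promoters of tested genes and 9.12% of all 27025 promoters. The GC box was in 71.2%, 64.1% and 35.9% of the same sets, the NF-Y box in 44.2%, 39.3% and 37.9%, and the TATA box in 11.5%, 7.48% and 14.2%. A match is a string of letters and not a measured binding site.

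Genes of the Sm ring, the core of the U snRNPs, went in both directions. Of the 8, 2 lay above (25%) and 2 below (25%) both controls, with a median difference of 0.22 (log2), where 27.8% and 11.4% of all tested genes did so. Over all 12 Snrp genes, 2 lay above (16.7%) and 3 below (25%), with a median of -0.23. Snrpe, which encodes SmE, read 131 and 412 FPKM in knockout 1 and 2, against 492 and 659.7 FPKM in control 1 and 2. Snrpf, for SmF, read 29.6 and 125 FPKM in the knockouts and 209 and 135 FPKM in the controls. In both genes the knockouts lay below the controls, but knockout 2 was closer to the nearest control than to knockout 1 in FPKM. The difference was -1.29 ± 0.74 (SE) on the log2 scale for Snrpe and -1.44 ± 1.07 for Snrpf, with limma adjusted p = 0.698 for each. Without knockout 1 they were -0.47 and -0.42, and without knockout 2 they were -2.11 and -2.46. Of the 50-base words of the Snrpf transcript 21.3% also occur in other genes, and of those of Snrpe 28.4%, mostly in processed pseudogenes, so their values may include reads of those copies. Snrpf exons also overlap Ccdc38 on the opposite strand over 65.85% of their bases, and the libraries carry no strand. Ccdc38 was listed at 0 FPKM in both knockouts and at 2.37 and 0.04 FPKM in the controls.

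Snrpb and Snrpn encode SmB and its close relative SmN, a form abundant in neurons that takes the place of SmB in the ring. Snrpb read 59.8 and 61.2 FPKM in the knockouts, against 12.65 and 0.21 FPKM in the controls. Snrpn (chromosome 7, 59982495 to 60450177, GRCm38.p6), an imprinted gene, read 82.7 and 41.55 FPKM in the knockouts and 0.08 and 0.14 FPKM in the controls. Both genes lay above the controls in both knockouts, at 3.92 ± 1.72 log2 units for Snrpb (limma adjusted p = 0.677), with 5.67 without control 1 and 2.17 without control 2, and 5.75 ± 1.56 for Snrpn (limma adjusted p = 0.559). Snurf, whose reading frame lies on the same transcript as SmN, read 39.7 and 4.35 FPKM in the knockouts and the identical 0.08 and 0.14 FPKM in the controls; reads cannot be assigned to one of the pair where they overlap. Rod markers lay higher in the same libraries, in 8 of 10, and so did 2 of 4 tested bipolar markers, with sums over 6 of 694 and 624 FPKM in the knockouts against 41.1 and 123 FPKM in the controls; their part in the Snrpn value was not tested.

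The other Sm genes overlapped between groups. Snrpd2 (SmD2) read 246 and 756 FPKM in the knockouts against 859 and 206 FPKM in the controls, and Snrpg (SmG) read 220.03 and 659 FPKM against 594 and 305 FPKM. Snrpd1 (SmD1) read 44.6 and 250.1 FPKM in the knockouts and 61.25 and 103 FPKM in the controls, and Snrpd3 (SmD3) read 128 and 49.9 FPKM against 187 and 0.5 FPKM. The summed level of the 8 ring genes was 941.6 and 2355 FPKM in the knockouts and 2415 and 1410 FPKM in the controls, so the knockouts differed from each other by more than the groups did. Knockout 1 was the lowest library in 4 of the 8, which were Snrpd1, Snrpe, Snrpf and Snrpg.

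The 4 Snrp genes of particular snRNPs all had a negative difference, with a median of -1.23, but 3 overlapped between groups. Snrpa, for the A protein of the U1 snRNP, read 0 and 0 FPKM in the knockouts and 0.05 and 57.0 FPKM in the controls. The size of its difference therefore rests on control 2 (-2.96 ± 2.27, limma adjusted p = 0.698). Snrpc, for the C protein of the same particle, read 21.8 and 78.5 FPKM in the knockouts against 48.6 and 231 FPKM in the controls. Snrpa1 and Snrpb2, for a pair of U2 snRNP proteins that bind each other, read 26.4 to 112 FPKM in the knockouts against 35.8 to 397 FPKM in the controls.

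**Figure D2:**
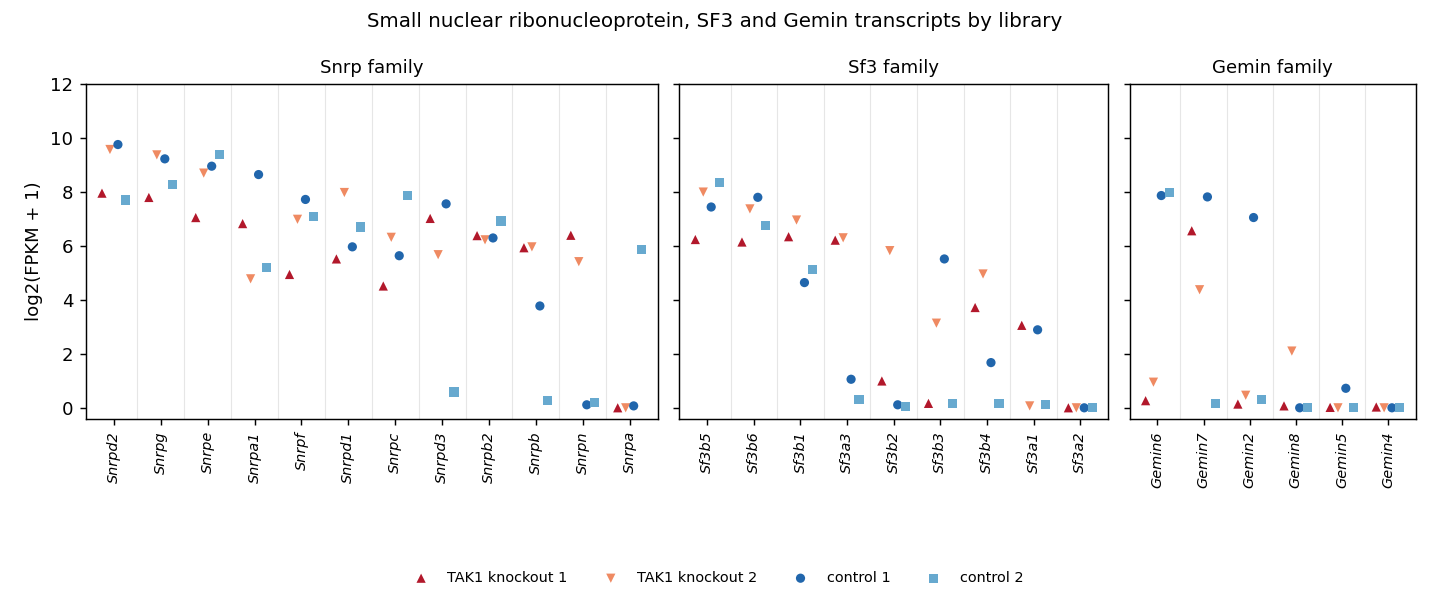
Level of each Snrp, Sf3 and Gemin gene in log2(FPKM + 1), 1 point per library, with genes ordered by mean within a family and no error bars. Snrpn, Snrpb and Sf3a3 have both knockout libraries (triangles) above both controls (circle and square), Gemin6 has both near 0, and Sf3a2 and Gemin4 are near 0 in all 4 libraries.

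Among SF3 genes, of the U2 snRNP, those above the controls were all under a mean of 100 FPKM. Of 8 tested, 4 lay above (50%, beside 27.8% of all tested genes) and 0 below both controls (beside 11.4%), with a median of 0.91, close to the 0.94 of all genes; the 2 members with a mean of at least 100 FPKM both overlapped. Sf3a3 (chromosome 4, 124714861 to 124732423), for a subunit of SF3A, read 72.85 and 77.5 FPKM in the knockouts against 1.08 and 0.25 FPKM in the controls. Its difference was 5.56 ± 1.49 log2 units (limma adjusted p = 0.559). The other SF3A genes gave no order by group: Sf3a1 read 7.3 and 0.05 FPKM in the knockouts and 6.4 and 0.09 FPKM in the controls, and Sf3a2 was listed at 0 in every library.

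Sf3b1, for the largest SF3B subunit, which clasps the branch site and is often mutated in human blood cancers, read 79.7 and 123 FPKM in the knockouts against 23.9 and 33.9 FPKM in the controls. It was the 1 SF3 gene with no overlap of groups that was well above 0 in every library. Its difference was 1.76 ± 1.08 log2 units and did not pass (limma adjusted p = 0.698), and it was 0.90 after median ratio scaling. Sf3b4 read 12.1 and 30.03 FPKM in the knockouts against 2.19 and 0.12 FPKM in the controls, at 3.42 ± 1.67 (limma adjusted p = 0.698). Sf3b2 read 0.99 and 55.5 FPKM against 0.08 and 0.04 FPKM, so the size of its difference rests on knockout 2 (3.32 ± 2.1, limma adjusted p = 0.698). Of the Sf3b4 transcript, 49.3% of 50-base words are shared with a processed pseudogene, and none of Sf3b1.

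The remaining SF3B genes overlapped. Sf3b5 and Sf3b6 encode small subunits, the product of Sf3b6 lying at the branch-point adenosine. Sf3b5 read 74.1 and 253 FPKM in the knockouts against 172 and 321 FPKM in the controls, and Sf3b6 read 69.4 and 164 FPKM against 221 and 106 FPKM. Sf3b3 read 0.12 and 7.78 FPKM in the knockouts and 44.6 and 0.12 FPKM in the controls. The summed level of the 9 SF3 genes was 316.6 and 710.5 FPKM in the knockouts and 471.2 and 461.4 FPKM in the controls, with the knockouts on either side of the controls.

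Gemin6 was the member with the smallest p. It encodes an SMN complex subunit that pairs with Gemin7 in a fold like that of Sm proteins. It read 0.2 and 0.93 FPKM in the knockouts, against 231 and 249 FPKM in the controls, and its log2 difference was the farthest from 0 of any tested member. The difference was -7.31 ± 1.36 log2 units (limma adjusted p = 0.559, unadjusted p = 0.00174), lower in 2 of 2 knockouts. Of its transcript's 50-base words, 10.5% occur in Gemin6-ps, a processed pseudogene that was excluded by name.

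Its partners did not share that pattern. Gemin7 read 93.0 and 19.7 FPKM in the knockouts and 223 and 0.12 FPKM in the controls, with knockouts between the controls. Gemin2, which cradles the Sm pentamer during assembly, read 0.1 and 0.38 FPKM in the knockouts and 131 and 0.25 FPKM in the controls, so 1 control held nearly all of it. Gemin4, Gemin5 and Gemin8 were not tested: none exceeded 0.65 FPKM in any library except Gemin8, at 3.29 FPKM in knockout 2. Gemin5, which recognises the small nuclear RNA, read 0.01 and 0 FPKM in the knockouts and 0.65 and 0 FPKM in the controls, and Gemin4 read 0.02 and 0 FPKM against 0 and 0 FPKM. Gemin8 read 0.05 and 3.29 FPKM in the knockouts and 0 FPKM in both controls. Of the transcript of Gemin4, 94.6% of 50-base words are shared with its neighbour Glod4, so its reads could not be assigned.

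SR protein genes had the highest summed level of the 5 families in every library, with Srsf2 as a large part of it. The sum was 1997 and 3541 FPKM in the knockouts, of which Srsf2 gave 584 and 1905 FPKM. In the controls it was 3132 and 3236 FPKM, of which Srsf2 gave 2079 and 2083 FPKM. Of 10 tested, 4 lay above (40%) and 2 below (20%) both controls, beside 27.8% and 11.4% of all tested genes, with a median difference of 0.78. After median ratio scaling 2 lay above, where 20.6% of all genes did, and the median was -0.10. Srsf5 (chromosome 12, 80945495 to 80950507) read 441 and 414 FPKM in the knockouts, against 123 and 159 FPKM in the controls. Both libraries of each group were close to each other and the groups were well apart, yet the difference of 1.60 ± 0.65 log2 units did not pass (limma adjusted p = 0.646, unadjusted p = 0.0495). After median ratio scaling it was 0.72. Srsf5 shares 28.6% of its 50-base words with a processed pseudogene.

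Srsf2 and Srsf11 stood lower in the knockouts. Srsf2, for an SR protein that binds exonic enhancers and is often mutated in human myeloid neoplasms, was the most abundant member, at 584 and 1905 FPKM in the knockouts against 2079 and 2083 FPKM in the controls. Its difference of -0.98 ± 0.58 log2 units (limma adjusted p = 0.698) came mainly from knockout 1: it was -0.13 without knockout 1, and -1.83 without knockout 2. Exons of Srsf2 overlap those of Mettl23 and Mfsd11 on the opposite strand. Mettl23 read 54.3 and 128 FPKM in the knockouts against 0.16 and 249 FPKM in the controls. Mfsd11 read 11.6 and 0.65 FPKM against 4.79 and 0.05 FPKM. Srsf11 read 102 and 39.6 FPKM in the knockouts against 174 and 222 FPKM in the controls, with no overlap (-1.61 ± 0.94, limma adjusted p = 0.698). Its difference was -2.28 without knockout 1 and -0.93 without knockout 2, and -2.48 after median ratio scaling.

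Srsf11 and Lrrc40 start 23 bases apart on opposite strands (GENCODE M21, GRCm38), within the Srsf11 promoter printed above. Lrrc40, a gene outside the families that was named after its values were seen, read 0.13 and 4.79 FPKM in the knockouts against 136 and 51.05 FPKM in the controls. Both genes of the pair therefore lay below both controls in both knockouts, as did 11.4% of all tested genes. The pair was picked from the 17 members with such a neighbour, and a link between its 2 genes was not tested.

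None of the other SR genes lay below both controls. Srsf1, an SR protein also active in translation and mRNA export, read 35.85 and 38.0 FPKM in the knockouts against 13.3 and 0.14 FPKM in the controls (3.23 ± 1.8, limma adjusted p = 0.698), and its difference was 5.06 without control 1 and 1.41 without control 2. Srsf6 read 52.0 and 87.2 FPKM against 34.1 and 13.9 FPKM (1.58 ± 1.22, limma adjusted p = 0.698), a difference of 0.72 after median ratio scaling and 0.96 without control 2. Srsf9 read 251 and 209 FPKM against 102 and 140.1 FPKM (0.93 ± 0.76, limma adjusted p = 0.698), a difference of 0.052 after median ratio scaling. Srsf7 read 267 and 325 FPKM in the knockouts and 362 and 101 FPKM in the controls, with overlap. Srsf3 and Srsf10 also overlapped, at 105 to 315 FPKM in the knockouts against 53.5 to 281 FPKM in the controls. Srsf4 was above 1 FPKM in knockout 1 alone, at 13.2 FPKM, and Srsf12 did not exceed 0.05 FPKM.

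**Figure D3:**
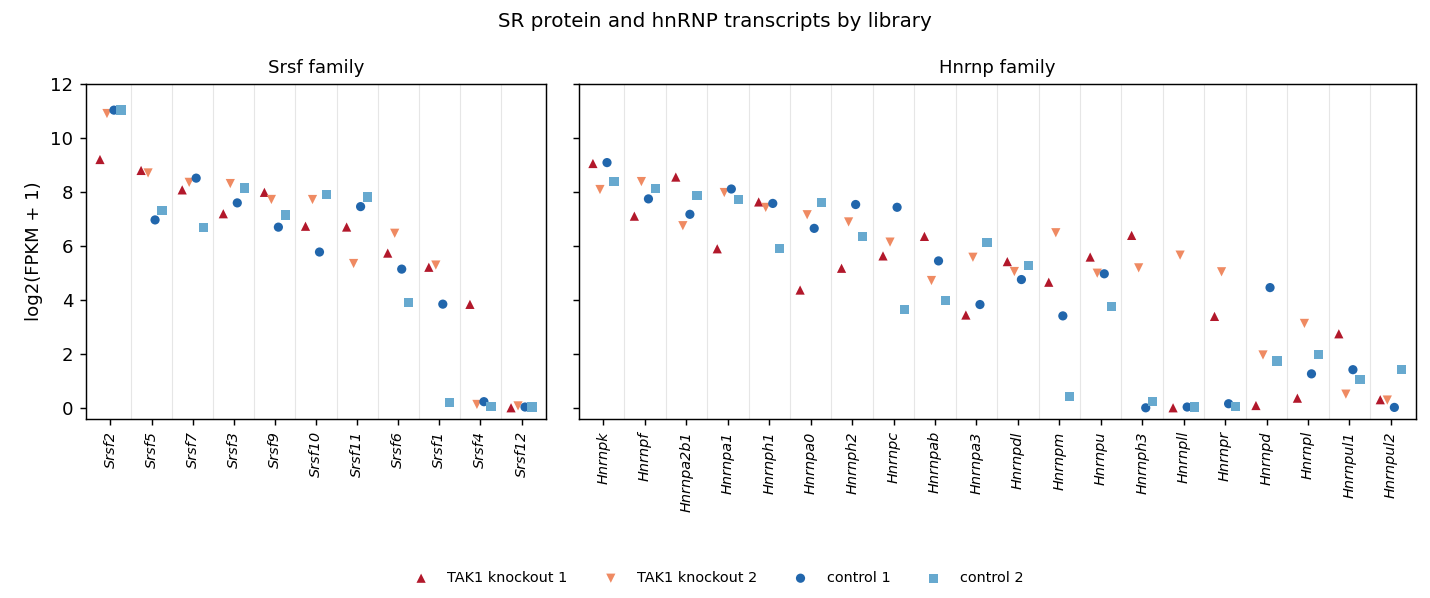
Level of each Srsf and Hnrnp gene in log2(FPKM + 1), 1 point per library, with genes ordered by mean within a family and no error bars. Srsf5 has both knockout libraries (triangles) above both controls (circle and square), Srsf11 has both below, and most Hnrnp genes interleave.

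Most hnRNP genes overlapped between groups. Of 19 tested, 4 lay above (21.05%, beside 27.8% of all tested genes) and 0 below both controls (beside 11.4%), and 15 overlapped, with a median difference of 0.22. After median ratio scaling 6 lay below, where 20% of all genes did. The abundant members were among those that overlapped. Hnrnpk, for a poly(C)-binding hnRNP, read 527 and 270.1 FPKM in the knockouts against 540.0 and 332 FPKM in the controls. Hnrnpf read 136 and 332 FPKM against 212 and 277 FPKM, and Hnrnpa2b1 read 372 and 106 FPKM against 142 and 230.4 FPKM. Their differences of -0.16 ± 0.63, -0.19 ± 0.77 and 0.13 ± 0.90 log2 units were each smaller than their SE, and each changed sign in some alternatives. All 7 Hnrnp members with a mean of at least 100 FPKM overlapped between groups.

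The 4 hnRNP genes above the controls were of lower level. Hnrnph3 (chromosome 10, 63014664 to 63023980), a relative of hnRNP H and F that binds G-rich RNA, read 82.5 and 35.3 FPKM in the knockouts against 0 and 0.18 FPKM in the controls (5.66 ± 1.58 log2 units, limma adjusted p = 0.559). Hnrnpr read 9.44 and 31.8 FPKM in the knockouts against 0.11 and 0.03 FPKM in the controls (4.11 ± 1.66, limma adjusted p = 0.643). The Hnrnpr difference was 3.29 without knockout 2. Hnrnpm read 24.1 and 88.4 FPKM in the knockouts against 9.58 and 0.34 FPKM in the controls (3.65 ± 1.76, limma adjusted p = 0.698), a difference of 2.16 without control 2. In Hnrnpu, for a chromatin-bound hnRNP, the groups barely separated: 46.9 and 30.65 FPKM in the knockouts against 30.16 and 12.4 FPKM in the controls.

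The other 2 Hnrnp members chosen by their p overlapped. Hnrnpll, an hnRNP known for Cd45 exon exclusion in T cells, read 0 and 49.3 FPKM in the knockouts and 0.02 FPKM in both controls. Hnrnpd, which encodes AUF1, a protein that binds AU-rich elements, read 0.06 and 2.88 FPKM in the knockouts against 20.9 and 2.32 FPKM in the controls. In Hnrnpll knockout 2 alone set the difference, and in Hnrnpd both the low knockout 1 and the high control 1 entered it. The summed level of the 20 Hnrnp genes stayed within 1531 to 1955 FPKM in all 4 libraries, with 1693 and 1806 FPKM in the knockouts and 1955 and 1531 FPKM in the controls.

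**Figure D4:**
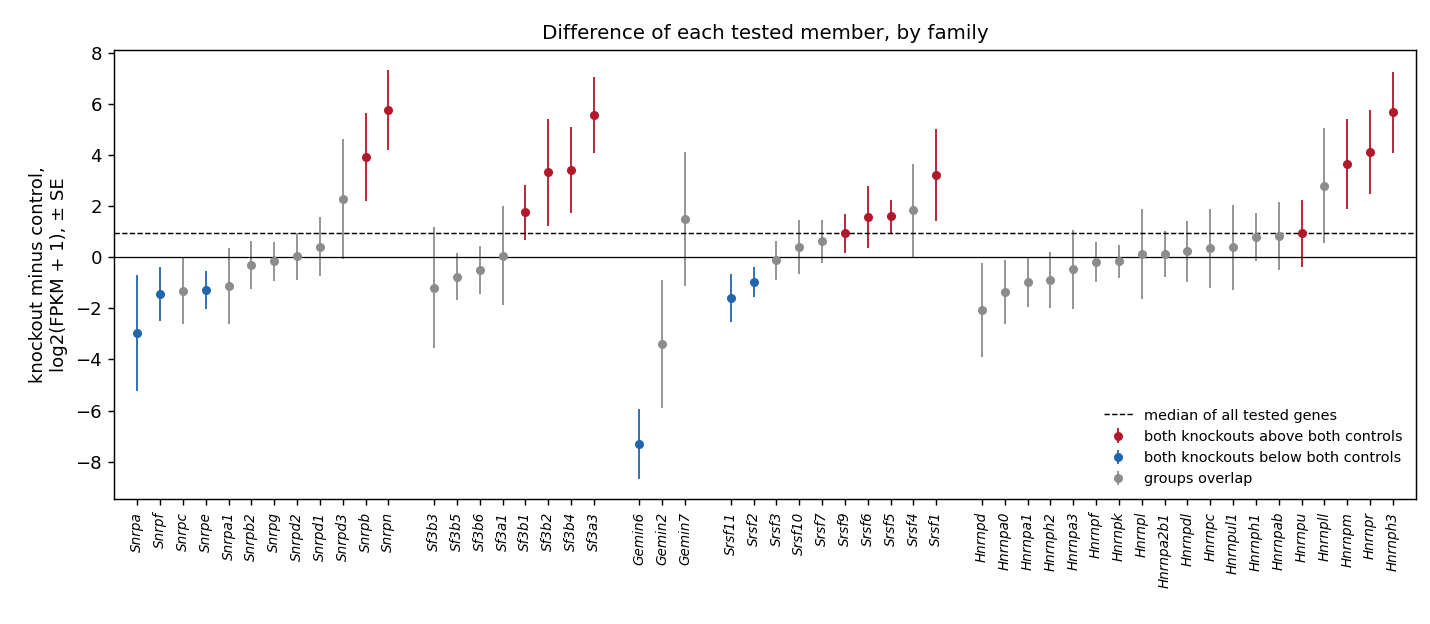
Difference of each tested member, knockout minus control on the log2(FPKM + 1) scale, with the SE from limma, ordered within family. Gemin6 lies lowest at -7.31 and Snrpn highest at 5.75, and the dashed line marks the median of all tested genes, 0.94.

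The same counts were made for splicing genes outside these names. Of 156 listed genes of the spliceosome and its regulators, 155 were in the table and 131 were tested, with 28 above (21.4%) and 16 below (12.2%) both controls, beside 27.8% and 11.4% of all tested genes. At an unadjusted p under 0.05, 4 were higher and 1 was lower, where 6.07% and 1.62% of all tested genes were, and none passed after adjustment. U snRNP proteins outside the Snrp and Sf3 names had 7 of 39 above and 3 below; Prp19 complex and catalytic-step factors 4 of 22 and 2; exon junction complex and SR-related proteins 7 of 23 and 4; splicing kinases and Sm methylation enzymes 3 of 8 and 0; SMN complex genes 0 of 3 and 0; and other regulators 7 of 36 and 7.

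The genes with the smallest p in this list were mostly near 0 in the controls. U2af1, for the small subunit of the factor that reads the 3′ splice site, read 42.7 and 23.0 FPKM in the knockouts against 1.24 and 0.18 FPKM in the controls. Prpf3, of the U4/U6 snRNP, read 33.3 and 44.8 FPKM against 0.18 and 0.11 FPKM, and Luc7l, a U1-associated protein gene, read 54.2 and 31.35 FPKM against 0.09 and 0.27 FPKM. Clk3, for a kinase of SR proteins, read 32.0 and 10.3 FPKM in the knockouts against 0.07 and 0 FPKM in the controls, and Cdc40, for a second-step factor, read 10.4 and 17.2 FPKM against 0.07 and 0.04 FPKM. Qk, which encodes the RNA-binding protein quaking, was the gene of the 6 that stood lower, at 86.3 and 62.15 FPKM in the knockouts against 467 and 261 FPKM in the controls (limma adjusted p = 0.582).

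In the 3 most abundant genes of the list knockout 1 was the lowest library, whereas over the 131 tested it was lowest in 26 and highest in 36. Lsm7, of the Sm-like ring on U6, read 706 and 1182 FPKM in the knockouts against 1520.2 and 1551 FPKM in the controls, and both knockouts lay below. Lsm3, of the same ring, read 155 and 550.0 FPKM against 690.0 and 508 FPKM. Bcas2, a Prp19 complex subunit gene, read 254 and 704 FPKM against 464 and 765 FPKM.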

How the data were processed

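RNA-seq was made from EYFP-sorted retinal microglia, with full-length cDNA amplified by PCR (SMART-SeqII) and transposon-based libraries, per the labels' protocols. The deposited table holds FPKM as the authors computed them, 1 value per gene and library, with mm10 as the build, per the submitters' processing notes. Which aligner, quantifier and annotation were used is not given in the sources used here. These values keep no read counts, so depth and counting error are unknown, and no molecular identifiers are named.

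Columns were matched to samples by title. From the FPKM, log2(FPKM + 1) was tested for knockout against control in the 7823 genes whose mean reached 1 FPKM. The test was limma's (version 3.58.1, run under R 4.3.3) with a trended variance prior of 3.99 degrees of freedom beside 2 residual ones, and Benjamini-Hochberg adjustment over all tested genes at 0.05. This scale understates the change of low genes. The code was tested on simulated data. Symbols, coordinates and promoters came from RefSeq GRCm38.p6, the build of mm10, and all 58 members matched by gene identifier. Exon overlaps, neighbouring starts and 50-base words were computed on GENCODE M21, with 1 principal transcript per gene. In 16 of the 58 members more than 20% of these words also occurred in other genes. Figures used matplotlib 3.10.9.

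The members and lists were chosen with earlier results of these data known. Named by rule were, in the Srsf, Hnrnp and Snrp families, the 5 smallest p and the 3 highest means; every Sf3 and Gemin gene; and, of the other splicing genes, the 6 smallest p and the 3 highest means. Other members named in full were chosen after their values were seen. Alternatives were 2 pseudocounts, 3 filters, 3 scalings, an untrended variance, a replicate block and each library left out.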

Additional observations from a re-analysis of the deposited data

How the results depend on the processing

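Of the 22 printed log2 differences of members, 19 kept their sign in each alternative that gave a value. Those 19 were of members with no overlap of groups, in which only the 3 scalings could have changed the sign. Their signs in the other alternatives were fixed in advance and do not measure stability. Over all 22 the sign held in 286 of 294 values, and the 8 exceptions were in Hnrnpk, Hnrnpf and Hnrnpa2b1. Median ratio scaling gave -0.75 for Hnrnpa2b1, and quantile normalization gave 0.059 for Hnrnpk. With 1 library left out, Hnrnpk ran from -0.65 to 0.32, Hnrnpf from -0.83 to 0.45 and Hnrnpa2b1 from -0.77 to 1.03. With all 4 libraries kept, the only printed difference that newly passed the threshold was that of Gemin6, with the replicate block. With the replicate number as a block, limma called 15 genes higher and 20 lower, among them 1 member, Gemin6 (adjusted p = 0.0358). With 2 pairs the numbers were not shown to pair the libraries (the correlation of same-numbered deviations was 0.017), and the block is given as a description. Quantile normalization called 2 genes higher and 3 lower, and no member. The other settings that kept all 4 libraries called 0 genes.

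The counts above and below both controls changed as follows. Without a filter 1 Gemin gene lay above. At a mean of at least 100 FPKM, 2 members lay above (0 Snrp, 0 Sf3, 2 Srsf, 0 Hnrnp), and the median differences were -0.19 for all members, -0.64 for Snrp and -7.31 for Gemin, where 1 gene was left. With the same sum per library the Snrp median was -0.072 and 1 Srsf gene lay below. After median ratio scaling 15 members lay below (1 Sf3, 2 Gemin and 6 Hnrnp among them) and 2 Srsf genes above, with medians of -0.50 for all members, -1.11 for Snrp, -0.10 for Srsf and -0.51 for Hnrnp. After quantile normalization 2 Gemin, 1 Srsf and 2 Hnrnp genes lay below. The cause was not tested.

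Leaving out 1 library in turn, limma called 0 to 1306 genes higher and 0 to 5 lower, and 0 to 2 members higher and 0 to 1 lower; the calls came without a knockout, where the lone knockout is assumed to vary like the controls. Members above numbered 17 to 23 and below 12 to 20, with medians of -0.0056 to 0.65. By family, above and below, there were 2 to 4 and 5 to 6 Snrp (median -0.80 to 0.18), 4 and 1 to 2 Sf3, 0 to 2 and 1 to 3 Gemin (median -4.54 to 1.09), and 5 to 9 and 2 to 7 Hnrnp genes. Unknown depth limits what a value near 0 can show.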

Other observations

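The members were short genes in part, and their counts differed by length. Of the 14 tested members with a principal transcript under 1500 bases, 9 of them Snrp genes, 2 lay above and 4 below both controls, against 23.4% and 16.9% of 1561 tested genes of that length. Of the 23 members of 1500 to 3000 bases, 6 lay above and 1 below, against 31.3% and 9.54% of 2726 genes. Of the 15 members of 3000 bases or more, 6 lay above and 1 below, against 27.2% and 10.2% of 3297 genes. Length and family cannot be told apart in so few genes, and the length classes were chosen after the data were seen.

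Of the 58 members, 17 have a protein-coding gene on the opposite strand that starts within 1000 bases of theirs, or up to 500 bases inside it. Hnrnpa2b1, at 372 and 106 FPKM in the knockouts against 142 and 230.4 FPKM in the controls, starts 466 bases from Cbx3, a heterochromatin protein gene, at 614 and 2130.2 FPKM in the knockouts against 1838 and 2342 FPKM in the controls. Knockout 1 was the highest library for Hnrnpa2b1 and the lowest for Cbx3. Hnrnph3 starts 98 bases from Pbld2, which did not exceed 0.17 FPKM in any library.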
